A study of Caenorhabditis elegans with 2 samples.

Results

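The genes described are those that encode heat shock proteins, chaperonins and DnaJ co-chaperones in the nematode Caenorhabditis elegans. They were chosen by name: every nuclear protein-coding gene of the WBcel235 annotation whose symbol begins with hsp-, dnj- or cct-, or is daf-21, sip-1 or unc-23. The rule found 61 genes of 19973. The gene known as daf-21 is annotated there as hsp-90.

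Chromatin immunoprecipitation followed by sequencing mapped the places on the genome at which the transcription factor DAF-16 was recovered. The worms were L4 hermaphrodites of strain ZM8745, whose own daf-16 gene carries the mu86 deletion and whose insulin receptor gene daf-2 carries e1370. DAF-16 came from the transgene hpSi15 (Pges-1 GFP::daf-16a), so that it was made under the intestinal ges-1 promoter in animals that lack functional DAF-16 elsewhere, and it was recovered with an antibody to GFP. Worms were collected 54 hours after synchronization as starved L1 larvae, and chromatin came from whole animals. One label names a tag at the C-terminal end, while the construct's name places GFP first. The 2 samples are biological replicates of 1 group, so no treated or mutant group could be set against a control, and no p-value is given. A library without the tagged protein was not analysed here.

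The authors deposited 4 lists of peaks on ce11, which is the WBcel235 assembly. Replicate 1 had 28175 entries, replicate 2 had 22676, and the list made from both replicates together, the pooled list, had 30000. The label of the pooled list names both peaks and background, so an entry low in it may be background. The optimal list held 1489 entries selected by the irreproducible discovery rate, a measure of how well the ranks of peaks match between replicates. They were the 1489 entries of highest signal in the pooled list. Single entries among them could still have unlike ranks in the 2 replicates, as at dnj-29 below. Signal is the authors' value for each peak. No source gives its scale, and it served here to rank entries within a list, with rank 1 the highest. The lists differ in length, so a gene's ranks in 2 lists show its place in each and no change. A gene was called bound where the summit of an optimal entry, its point of highest signal, lay in the window from 1000 bp upstream to 500 bp downstream of any annotated start of its transcripts. The lists hold no read counts, so the depth is unknown.

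DAF-16 is the worm's FOXO factor. Insulin-like signalling through DAF-2 holds it in the cytoplasm, and when that signalling is low it enters the nucleus and switches on genes for stress resistance and long life. Chaperones help proteins fold, stop them from clumping and take clumps apart. HSP70 proteins bind and release unfolded stretches, DnaJ proteins bring clients to them and start ATP hydrolysis, HSP110 and BAG proteins release ADP, and HSP90 finishes the folding of signalling proteins. The ring-shaped chaperonins enclose a protein while it folds, and small heat shock proteins hold unfolded proteins without using ATP. Genetic work in worms placed several small heat shock genes, among them hsp-16.1, hsp-12.6 and sip-1, downstream of both DAF-16 and the heat shock factor HSF-1, which binds repeats of the unit GAA and its complement TTC.

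The sequences that follow show the DNA under the summits of 3 bound genes, read from the RefSeq copy of WBcel235 on the plus strand. The window of hsp-3 (chrX:6092125-6092201) ends where its 5′ untranslated region begins. It is shown because it lay under the highest entry of any chaperone gene. The windows of hsp-110 (chrIII:8447089-8447189) and hsp-90 (chrV:14685703-14685803) reach 50 bp to each side of the summit and are shown because each holds part of a heat shock element. Capitals mark the units of such elements, matched as GAANNTTC or TTCNNGAA, where N is any base.
hsp-3: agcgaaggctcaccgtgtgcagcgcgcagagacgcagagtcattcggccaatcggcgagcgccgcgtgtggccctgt
hsp-110: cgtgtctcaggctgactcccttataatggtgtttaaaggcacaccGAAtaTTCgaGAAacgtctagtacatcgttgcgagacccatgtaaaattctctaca
hsp-90: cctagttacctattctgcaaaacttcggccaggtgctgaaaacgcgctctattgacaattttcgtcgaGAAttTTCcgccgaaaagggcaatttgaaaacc

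Of the 61 chaperone genes, 12 (19.7%) were bound, beside 836 of all 19973 protein-coding genes (4.19%). The 12 were hsp-3, hsp-60, unc-23, hsp-110, hsp-90, cct-1, cct-8, dnj-13, dnj-14, dnj-9, hsp-1 and dnj-29, from highest to lowest rank. A further 28 genes had a summit in the pooled list below the optimal set, 9 had one only in a replicate list, and 12 had none in any list. In the pooled list as a whole 40 of the chaperone genes (65.6%) had a summit in the window, beside 45.5% of all genes. Among the 3000 highest pooled entries the count was 18 (29.5%), beside 8.7% of all genes.

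The median pooled rank was 3035 over the 40 chaperone genes with an entry and 10183 over all genes with one. Within the optimal list the 12 bound genes had a median rank of 596, and all 836 bound genes had one of 811.5. The chaperone genes had a mean of 1.62 annotated transcript starts and a median of 1, against a mean of 1.47 and a median of 1 over all genes. Bound chaperone genes had from 1 start, as at hsp-110, to 4, at hsp-60. Whether the number of windows searched per gene bears on the counts was not tested.

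**Figure D1:**
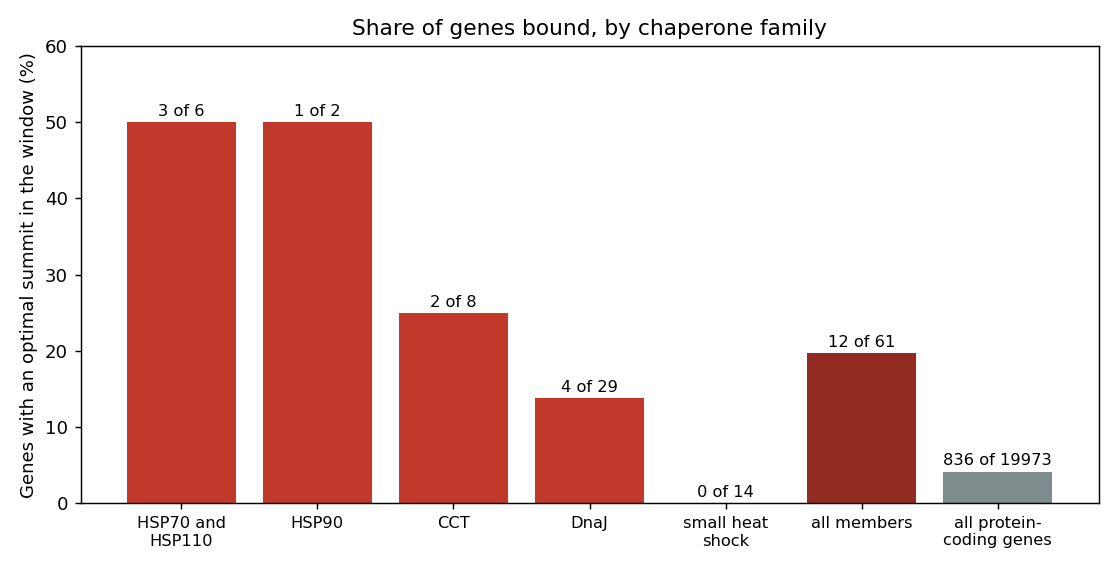
Share of genes with an optimal summit in the promoter window (vertical axis, percent), by chaperone family, for all 61 chaperone genes and for all 19973 protein-coding genes; bars carry the number bound of the number in the group. The HSP70 and HSP110 genes stand at 3 of 6 and the small heat shock genes at 0 of 14, while unc-23 and hsp-60 are counted only in the bar of all members.

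Genes of the HSP70 and HSP110 class, of which 3 of 6 were bound beside 4.19% of all genes, ranged in the pooled list from rank 123 to no entry. The gene hsp-3 encodes one of the worm's BiP proteins, the HSP70 of the endoplasmic reticulum (ER), and had rank 152 in replicate 1, 110 in replicate 2 and 123 in the pooled list. Its signals in the same order were 123, 107 and 227, and the pooled summit lay 27 bp upstream of a transcript start, in the entry chrX:6092095-6092270. The gene for the other BiP protein, hsp-4, had ranks of 7723 in replicate 1, 7907 in replicate 2 and 14091 in the pooled list, with signals of 26.5, 21.4 and 32.1. These were not 1 site. The summits of replicate 1 and the pooled list lay inside the gene, 672 and 675 bp upstream of an internal start. That of replicate 2 lay 567 bp upstream of the gene. The paralogs thus stood far apart in each of the 3 lists.

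The constitutive cytosolic HSP70 gene hsp-1 was bound through 2 entries. The higher one (chrIV:17278277-17278696) had its summit 472 bp upstream of the start, with a pooled rank of 1330 and a signal of 89.8. The other, at rank 1456 with a signal of 85.3, lay 296 bp downstream, inside the coding sequence. The highest hsp-1 entries of replicates 1 and 2 had ranks of 990 and 941. Its heat-inducible relative hsp-70 had no entry in any of the 4 lists.

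Both hsp-110 and unc-23, whose products release ADP from cytosolic HSP70, ranked above hsp-1, while the class A DnaJ genes dnj-19 and dnj-12 ranked below it. The gene hsp-110 encodes the HSP110 exchange factor and had ranks of 393 and 320 in replicates 1 and 2, and 380 in the pooled list (chrIII:8446929-8447348), with signals of 89.5, 79.0 and 162. Its summit lay 230 bp upstream of the start. The gene unc-23 encodes a BAG-domain co-chaperone of HSP-1 known for keeping muscle attached. It had ranks of 278, 353 and 332 with signals of 101, 76.8 and 170.0, in the order replicate 1, replicate 2 and pooled. Its summit lay 42 bp downstream of the start, in the first, untranslated part of the transcript (chrV:8936191-8936610). In no list did either gene rank below 393.

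The cytosolic HSP90 gene hsp-90 had ranks of 487 and 503 in replicates 1 and 2 and 490 in the pooled list, with signals of 82.4, 67.4 and 146. The summit of its entry (chrV:14685543-14685962) lay 407 bp upstream of the downstream start and within an intron of the longer transcript. The gene of the mitochondrial HSP90 (TRAP1) relative, hsp-75, had no entry in any list.

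Among chaperonin genes the mitochondrial one ranked highest. The gene hsp-60 had ranks of 304 in replicate 1, 218 in replicate 2 and 241 in the pooled list (chrIII:1619079-1619183), with signals of 98.2, 89.0 and 189. The summit lay 633 bp upstream of the hsp-60 start and 180 bp upstream of Y22D7AL.10, which RefSeq names as the mitochondrial 10 kDa heat shock protein, the partner that caps the HSP-60 ring. The entry thus lay between the genes of both parts of that chaperonin.

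The cytosolic chaperonin CCT, known for folding actin and tubulin, is built from the products of 8 genes, and 2 of them were bound, beside 4.19% of all genes. The gene cct-1 had ranks of 733, 544 and 576 in replicate 1, replicate 2 and the pooled list, with signals of 69.8, 65.2 and 135 (chrII:8184995-8185414). In the same order cct-8 had ranks of 516, 787 and 616 and signals of 81.0, 55.4 and 132 (chrIV:1094166-1094585). The remaining subunits of the same ring ranged widely. In the pooled list cct-7 had rank 1929, cct-6 rank 2594 and cct-5 rank 8678. The gene cct-3 had a single entry in replicate 2 at rank 21557, and cct-2 and cct-4 had none in any list.

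Of 29 DnaJ genes, 4 (13.8%) were bound, beside 4.19% of all genes, and 20 (69.0%) had a pooled entry, beside 45.5%. The gene dnj-13 encodes a class B DnaJ protein of the cytosol that works with HSP-1 and HSP-110 in dissolving aggregates in vitro. It ranked 1306 in replicate 1, 300 in replicate 2 and 670 in the pooled list, with signals of 53.0, 81.3 and 126 (chrII:11545238-11545657). It was thus among the 1489 highest entries of both replicates, near the end of that set in replicate 1. The summit lay 253 bp upstream of the dnj-13 start and in an intron of dhgd-1.

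The cysteine string protein gene dnj-14, whose product guards synaptic vesicle proteins, had ranks of 1289, 704 and 809 in replicate 1, replicate 2 and the pooled list (chrX:4711891-4712310). For dnj-9 those ranks were 969, 914 and 918 (chrII:4851623-4852042). Signals in the same order were 53.4, 58.0 and 114 for dnj-14, and 61.0, 51.9 and 109 for dnj-9. The neuronal role of dnj-14 comes from work on worm neurons, while the tagged protein here was driven by an intestinal promoter.

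The last bound gene was dnj-29, the worm's SEC63 gene, whose product draws new proteins into the ER together with BiP. It ranked 2800 in replicate 1, 1263 in replicate 2 and 1477 in the pooled list, with signals of 38.3, 44.7 and 84.7 (chrI:14113031-14113450). The lowest signal in the optimal list was 84.3. The summit of replicate 1 lay 211 bp from the pooled one, the largest shift among the 13 entries of the 12 genes, for which the median was 12.5 bp.

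The gene nearest to the threshold from below was dnj-20, whose product is an ER DnaJ partner of BiP. It had a pooled rank of 1534 and a signal of 83.0, with ranks of 1716 in replicate 1, above that of dnj-29, and 1784 in replicate 2, below it. The pooled summit of dnj-20 lay inside the gene, 694 bp upstream of an internal start. Next came cct-7 at 1929, dnj-19 at 2208, cct-6 at 2594, dnj-4 at 2654 and dnj-12 at 3000. Both dnj-12 and dnj-19 encode class A DnaJ proteins of the cytosol. The mitochondrial HSP70 gene hsp-6, a common reporter of mitochondrial stress, followed at 3034, with ranks of 7350 in replicate 1 and 2652 in replicate 2.

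Most other DnaJ genes ranked low or had no entry. In the pooled list dnj-28 had rank 4379, dnj-22 rank 5113, dnj-3 rank 7354, dnj-8 rank 10317, dnj-5 rank 12671, dnj-24 rank 17278 and dnj-30 rank 18946. Only replicate lists held entries for dnj-2, dnj-11, dnj-16, dnj-17, dnj-18 and dnj-23, of which the highest was dnj-2 at rank 4443 in replicate 2. No list held one for dnj-25 or dnj-26.

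None of the 14 small heat shock genes was bound, and none was among the 3000 highest pooled entries. Over all genes the shares were 4.19% and 8.7%, so that counts of 0 in a group of 14 lie near the background. The highest was an entry shared by hsp-16.2 and hsp-16.41, a divergent pair on chromosome V with summit distances of 163 and 58 bp upstream. This entry had ranks of 3747 in replicate 1, 10576 in replicate 2 and 3035 in the pooled list, with signals of 34.4, 19.2 and 59.9. Below it in the pooled list came hsp-17 at 4942, hsp-25 at 5928, hsp-12.3 at 8089, hsp-12.1 at 17126 and sip-1 at 17479. The gene hsp-12.2 had entries in the replicate lists alone, at ranks of 24590 and 7093. No entry was listed for hsp-12.6 or hsp-43.

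The other 4 hsp-16 genes, 2 annotated as hsp-16.1 and 2 as hsp-16.48, also had no entry. RefSeq gives the second copies as hsp-16.11 (chrV:9090077-9090604) and hsp-16.49 (chrV:9089280-9089766). The gene bodies of hsp-16.48 and hsp-16.49 are identical over 487 bp. Of the 36 bp words in the windows of hsp-16.48 and hsp-16.49, 0% occur once in the genome, and the shares are 2.80% for hsp-16.1 and 5.39% for hsp-16.11. The median over the 61 genes was 100%, and 52 genes had at least 95%. Reads from such copies cannot be placed at one of them, so an entry there could be missing for that reason, which was not tested. The read length is not given in the sources used here.

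**Figure D2:**
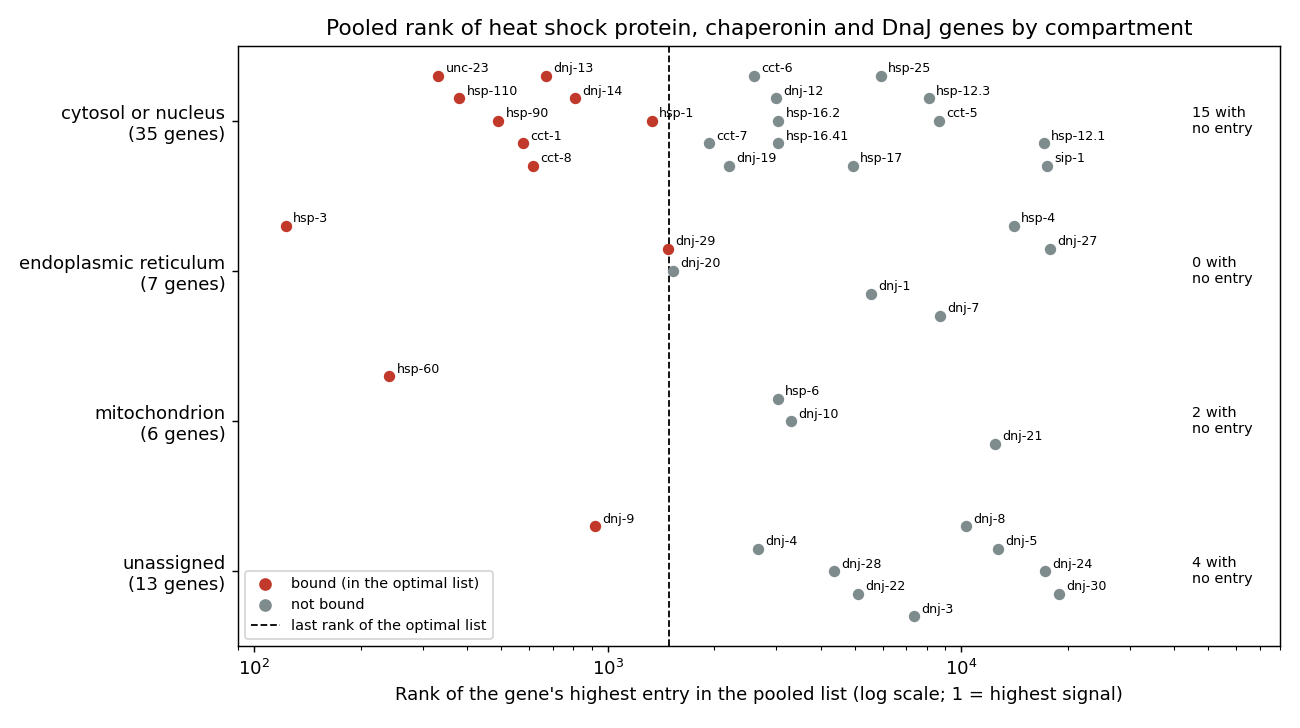
Rank of each chaperone gene's highest pooled entry (horizontal log axis, 1 the highest signal) by the compartment of its protein, one point per gene, red where bound; the dashed line is the last optimal rank, 1489, and the number with no pooled entry stands at the right. The cytosolic genes hold 8 of the 12 bound points, while the single highest points belong to hsp-3 of the ER and hsp-60 of the mitochondrion.

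By compartment, 8 of 35 genes of cytosolic or nuclear proteins were bound (22.9%), as were 2 of 7 ER genes (28.6%) and 1 of 6 mitochondrial genes (16.7%), beside 4.19% of all genes. Of 13 genes not placed in a compartment, dnj-9 was the one bound (7.69%). Each of the 7 ER genes had a pooled entry, as did 4 of the 6 mitochondrial genes (66.7%) and 20 of the 35 cytosolic ones (57.1%), beside 45.5% of all genes. At the ER genes dnj-20, dnj-27 and hsp-4 the highest pooled summit lay inside the gene, by an internal start and not the 5′ end. So it did at hsp-90 and hsp-25 of the cytosolic genes. The median pooled rank of those with an entry was 2401 for cytosolic, 5549 for ER and 3162.5 for mitochondrial genes. By ranks in the replicate 1 list alone the medians were 3747, 6960 and 7350 in the same order, and in the replicate 2 list alone 2784, 3406 and 2652, so the order of compartments changed with the list. With the 1489 highest entries of replicate 1 alone, 1 ER gene was bound. The pooled ranges overlapped almost wholly, running from 332 to 17479, from 123 to 17841 and from 241 to 12426.

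The cytosolic genes that were bound lay between ranks 332 and 1330. Those of the ER fell into a high one, hsp-3, 2 near the threshold, dnj-29 and dnj-20, and 4 lower down. The lower ER genes were dnj-1 at 5549, dnj-7 at 8727, hsp-4 at 14091 and dnj-27 at 17841. Of these, dnj-7 and dnj-27 encode the worm relatives of mammalian P58IPK and ERdj5. Among mitochondrial genes, dnj-10 had rank 3291 in the pooled list and 1498 in replicate 1 but no entry in replicate 2. The gene for the protein import motor subunit dnj-21 had rank 12426. The gene dnj-15 was listed in replicate 1 alone, at 23687.

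Most bound chaperone genes ranked high in both replicates, which the way they were chosen favours, since the optimal list was made from the same 2 replicates. They also stood higher in that list than bound genes at large, with a median rank of 596 against 811.5. The counts below are therefore no separate evidence of reproducibility. In the 1489 highest entries of replicate 1, 11 chaperone genes (18.0%) had a summit, beside 4.11% of all genes. In the 1489 highest of replicate 2 there were 12 (19.7%), beside 4.19%. Of the 12 bound genes, 11 were in both sets and dnj-29 was in that of replicate 2 alone, while 531 of all 836 bound genes (63.5%) were in both. Over the 38 chaperone genes listed in both replicates the rank correlation was 0.846 (Spearman's rho, across genes), and over all 5647 such genes it was 0.539. Genes are not independent replicates, and some share an entry. Both replicate lists were also made with a file in common, per the deposited notes, which do not say what it is.

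**Figure D3:**
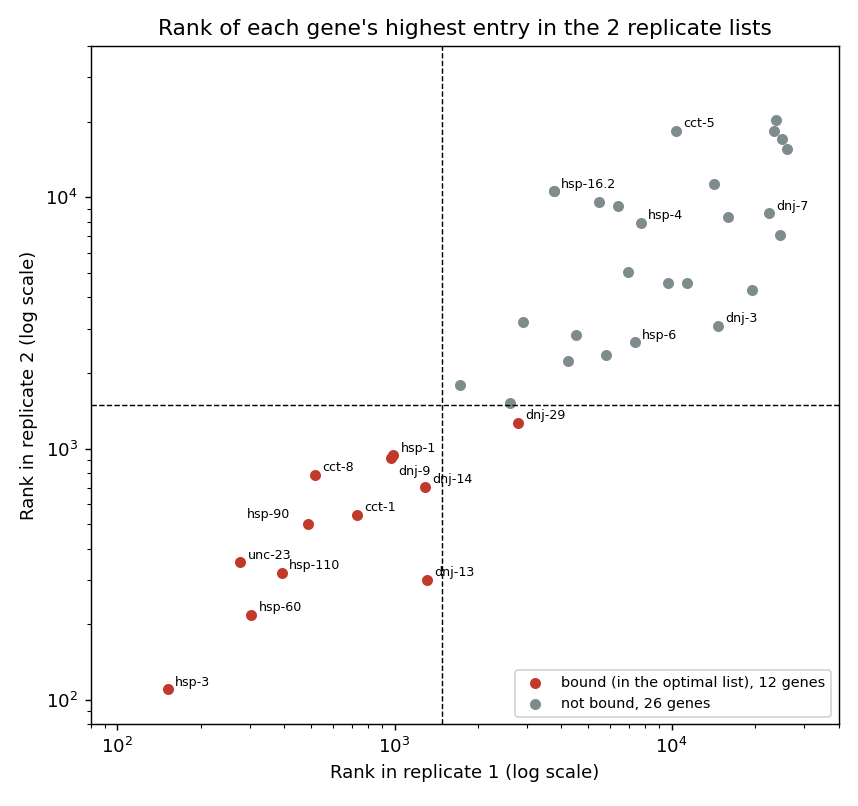
Rank of each chaperone gene's highest entry in replicate 1 (horizontal, log scale) and in replicate 2 (vertical, log scale) for the 38 genes listed in both, red where bound; dashed lines mark rank 1489. Of the 12 bound genes, 11 lie in the lower left and dnj-29 lies to the right of the vertical line; hsp-16.2 and hsp-16.41 share a point, as they share an entry.

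Many of these entries stood between divergent transcript starts. Of the 13 entries at the bound chaperone genes, 8 also had another protein-coding gene in reach by the same window. In all 8 the nearest starts lay on opposite strands and pointed away from the summit. At hsp-90 this holds for the downstream start, since the longer transcript runs across the summit. Among all 703 optimal entries in a promoter window, 165 (23.5%) lay in the windows of 2 or more genes. In 6 of the 8 the summit was nearer to the other gene. Besides Y22D7AL.10 at hsp-60, these were the proteasome subunit gene rpn-3 at hsp-110 (214 bp), C47E8.4 at hsp-90 (268 bp), the dishevelled gene mig-5 at cct-1 (182 bp), Y55F3AR.2 at cct-8 (165 bp) and the neuroligin-like glit-1 at dnj-14 (178 bp). At dnj-13 and dnj-29 the chaperone gene was the nearer one.

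Which gene of a pair such an entry serves cannot be told apart from summits. When each summit was given only to the gene with the nearest start, 10 chaperone genes were bound, beside 6.28% of all genes. The genes hsp-60, hsp-110, hsp-90, cct-1, cct-8 and dnj-14 dropped out, and dnj-19, dnj-20, hsp-12.3 and hsp-25 came in with summits beyond the window. The genes bound by both rules were hsp-3, unc-23, dnj-13, dnj-9, hsp-1 and dnj-29.

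The summit lay upstream of the start at 11 of the 12 bound chaperone genes and at 724 of all 836 bound genes (86.6%). The median distance was 245.5 bp at the chaperone genes and 291 bp at all bound genes. No entry of a bound chaperone gene lay within 100 bp of a transfer RNA, small nucleolar RNA or small nuclear RNA gene, while 143 of the 703 promoter entries (20.3%) did. Annotated RNAs of the unclassified kind lay that near to 4 of the 13 entries, at hsp-110, dnj-13, dnj-14 and the upstream hsp-1 entry.

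**Figure D4:**
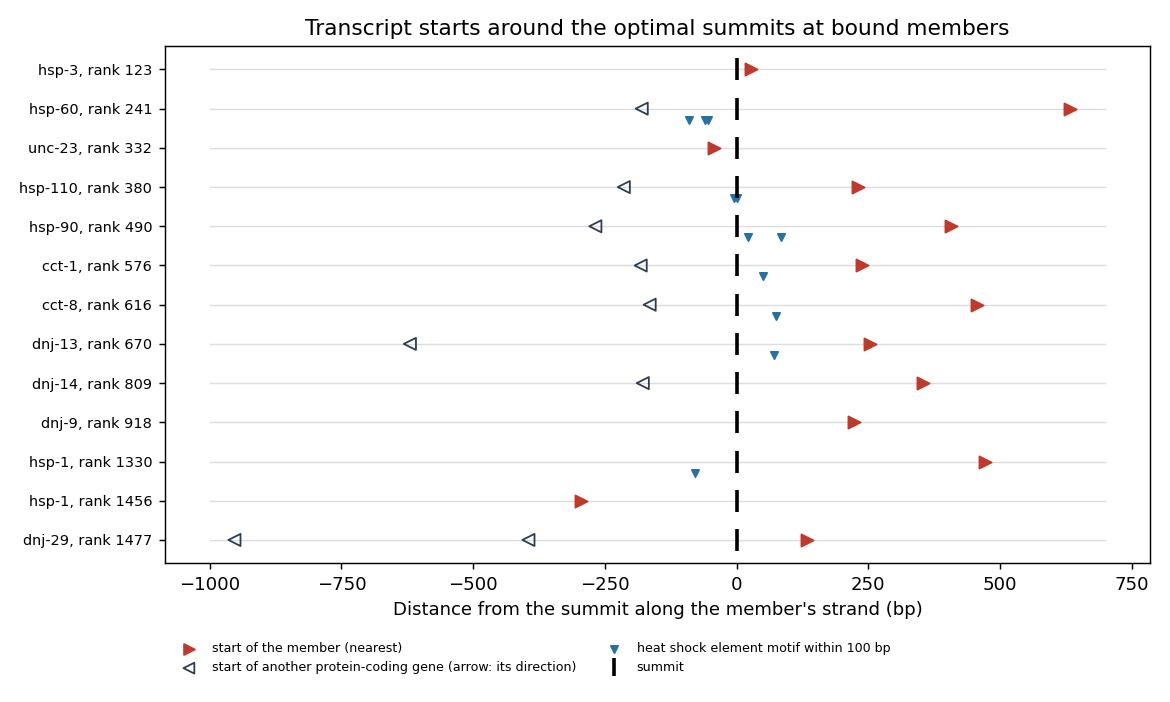
Transcript starts around each of the 13 optimal summits at bound chaperone genes (horizontal axis, bp from the summit along the chaperone gene's strand): red arrows are the nearest start of the chaperone gene, open arrows those of other protein-coding genes, and blue marks are GAANNTTC or TTCNNGAA within 100 bp. Open arrows point left at 8 of the 13 summits, and blue marks stand at 7, from hsp-110 at the summit itself to hsp-60 at 91 bp.

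Motifs were searched on both strands in DNA around the summits. Within 50 bp of the 13 summits there was no TGATAAG, which is a GATA-like DAF-16-associated element found in worm promoters, no TGTTTAC and no TATTTAC, which are forkhead sites. Over the 703 promoter summits the shares were 8.82%, 4.41% and 1.42%. No match says only that these letters are not in these windows. The pair of heat shock units GAANNTTC was within 50 bp of 2 of the 13 summits (15.4%, against 3.13% of promoter summits) and the reverse pair TTCNNGAA of 1 (7.69%, against 3.70%). The unfolded protein response core TGACGTG was near 1, that of dnj-29 (7.69%, against 1.85%).

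Within 100 bp, GAANNTTC was near 7 of the 13 summits (53.8%) and 9.39% of promoter summits, and TTCNNGAA near 3 (23.1%) and 8.68%. The matches lay at hsp-60, hsp-110, hsp-90, cct-1, cct-8, dnj-13 and the upstream hsp-1 entry. A run of 3 consecutive units, in which both pairs share a unit, was found at hsp-110, 1 bp from the summit, and at hsp-60, 60 bp away, so at 2 of the 13 (15.4%) against 1.99% of promoter summits. TGATAAG was again at 0 of the 13, against 14.1%.

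The matches at hsp-60, cct-1, cct-8, dnj-13 and hsp-1 are shown as 30 bp of the plus strand with the units in capitals, since with those of hsp-110 and hsp-90 shown above they make up the 7 summits. In hsp-60 the first stretch is chrIII:1619003-1619032, 91 bp from the summit, and the other is chrIII:1619034-1619063, which holds the 3 units. The stretches of the remaining genes are chrII:8185240-8185269 for cct-1, chrIV:1094287-1094316 for cct-8, chrII:11545504-11545533 for dnj-13 and chrIV:17278394-17278423 for hsp-1. Their distances from the summit were 50, 74, 71 and 78 bp.
hsp-60: aagaaacccgcGAAaaTTCagaaaatgatc
hsp-60: aaaaaccaaaaGAAgcTTCgaGAAaaaaag
cct-1: atgcgctctgaGAAtaTTCtacaagaattt
cct-8: tttgaaattcgGAAaaTTCgcgagcattga
dnj-13: agaacgctctgGAAagTTCcgcactcttct
hsp-1: tgttgcgccgcGAAtcTTCcaggcattctt

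Promoters were taken as 250 bp before to 50 bp after 1 start per gene, the one at its 5′ end. There GAANNTTC was in 26 of the 61 chaperone genes (42.6%) and in 18.5% of all genes. It was in 7 of the 12 bound chaperone genes (58.3%) and in 19 of the 49 unbound ones (38.8%), and in 156 of the 824 other bound genes (18.9%). The 6 hsp-16 genes all held it, though none was bound. At the 4 of them with no entry in any list, few or no 36 bp words of the window occur once in the genome. An entry there could be missing for that reason, which was not tested. A run of 3 units was in 11 chaperone promoters (18.0%) and in 1.96% of all promoters. The 11 were those of hsp-110, hsp-90, hsp-1, dnj-12, hsp-70 and the 6 hsp-16 genes, so 3 were bound and 8, among them the same 4 hsp-16 genes, were not. Of the 3, only hsp-110 had such a run within 100 bp of its summit. At hsp-90 the promoter searched was that of the longer transcript, not of the downstream start by the summit. TGATAAG was in 0 of the 61 (9.20% of all genes), and TGACGTG in 5 (8.20%, against 2.92%), which were hsp-3, dnj-29, dnj-20, dnj-28 and hsp-4. The forkhead site TGTTTAC was in 5 of the 61 (8.20%, against 4.77% of all genes), and 0 of the 12 bound genes held it. The other forkhead site, TATTTAC, was in 4 (6.56%, against 6.73%), of which 1 was bound.

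Genes that regulate or assist the chaperones were looked at in 5 lists, in which 42 of 44 names matched the annotation. Of the 42, 5 were bound (11.9%), beside 4.19% of all genes. The 5 genes bound in the optimal list were 3 of 12 genes of ER folding and the unfolded protein response and 2 of 11 in the co-chaperone list. The counts were 0 of 4 in the heat shock factor list, 0 of 6 for prefoldin and 0 of 9 for mitochondrial proteostasis. By the 1489 highest entries of replicate 2 alone 10 network genes were bound, beside 4.19% of all genes. By those of replicate 1 alone 5 were, beside 4.11%. These sets differed from the optimal one. That of replicate 2 also held hsb-1 of the heat shock factor list and atfs-1 and ubl-5 of the mitochondrial list. It further held enpl-1, pdi-2 and pdi-6 of the ER list, but not stc-1. That of replicate 1 also held clpp-1 of the mitochondrial list and atf-6 of the ER list, but neither bag-1 nor pdi-3. Only xbp-1 and crt-1 were in all of these sets. In the optimal list the highest was xbp-1, the transcription factor gene of the unfolded protein response, with ranks of 78 in replicate 1, 182 in replicate 2 and 107 in the pooled list. Its signals were 154, 93.9 and 241, and the summit lay 19 bp upstream of a start (chrIII:4193646-4193868), so that xbp-1 ranked just above hsp-3.

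The calreticulin gene crt-1 followed with ranks of 1063, 365 and 536 in replicate 1, replicate 2 and the pooled list, and the protein disulfide isomerase gene pdi-3 with 1513, 813 and 994. The bound genes of the co-chaperone list were bag-1, with 1701, 750 and 1083, and the HSP70-like stc-1, with 1016, 1850 and 1273. The ER HSP90 gene enpl-1 fell just short at pooled rank 1536, with 8177 in replicate 1 and 760 in replicate 2. The heat shock factor gene hsf-1 had a pooled rank of 17558, with 6135 in replicate 1 and no entry in replicate 2.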

How the data were processed

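Peak lists of 2 biological replicates, in 1 group, were used on ce11. Per the labels and notes, the authors deposited a list for each replicate, a pooled list of peaks and background, and an optimal list thresholded by the irreproducible discovery rate. The threshold, like aligner and peak caller, is not given in the sources used. The signal the authors deposited per peak has no stated scale or normalization and served only for ranks within a list. Depth is unknown. Summits were assigned to 29314 transcript starts of nuclear genes (Ensembl release 115), highest signal per gene. Mitochondrial-genome genes were left out, but entries on that genome kept their places in the ranks. They were 25 of the 1489 optimal and 25 of the 30000 pooled entries, and 25 and 22 in replicates 1 and 2. Their signals in the optimal list reached 9154, against 556 for nuclear entries. Compartments and the 5 network lists come from general knowledge of the proteins. The genes and lists were chosen with earlier results of these data known. Genes were named if bound, among the 3000 highest pooled entries, in the cct or hsp-16 group, or one of hsp-1, hsp-4, hsp-6, hsp-70, hsp-90, sip-1 and hsp-12.6; bound network genes too. Other genes were named after their values were seen. No test was made, and shares over all genes serve as the background. In simulated data 200 of 200 planted summits were assigned. Alternatives covered the window, the assignment rule, the number of peaks, the motif window and each replicate. Python 3.11.15, numpy 2.4.6, pandas 2.3.3 and scipy 1.17.1 were used.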

Additional observations from a re-analysis of the deposited data

How the results depend on the processing

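The count of 12 bound chaperone genes stayed between 8 and 13 under every alternative. It was 11 with 500 bp upstream (hsp-60 left, 3.14% of all genes bound), 12 with 2000 bp (5.67%), 13 by any overlap of the entry (hsp-12.3 came in, 4.68%) and 8 among the 744 highest optimal entries (1.91%). It was 12 without replicate 1 (4.19%) and 11 without replicate 2 (4.11%). Without summits near transfer, nucleolar or nuclear RNA genes, an alternative chosen after seeing the data, it was 12 (3.45%). The compartment values rest on few genes. ER genes bound were 1 among the 744 highest entries and 1 to 2 with a replicate left out. Mitochondrial genes bound were 0 with 500 bp or with the nearest start (6.28% of all genes), since both drop hsp-60. The median cytosolic rank was 5565.5 with the nearest start and 2784 to 3747 with a replicate left out. The median ER rank was 3406 to 6960 with a replicate left out. The median mitochondrial rank was 7681.5 with 500 bp, 8986 with the nearest start and 2652 to 7350 with a replicate left out. Network genes bound were 3 with 500 bp, 2 among the 744 highest and 5 to 10 with a replicate left out, 10 being without replicate 1. Within 100 bp of summits, TATTTAC was at 1, GAANNTTC at 7 and TTCNNGAA at 3 of 13, beside 3.70%, 9.39% and 8.68% of promoter summits. Within 25 bp TGACGTG was at 0, beside 0.996%. Replicate lists stood in for the optimal list by their 1489 highest entries. Of 70 alternative values, 16 differed from the values in the report, counts by over 1.5 times or between 0 and above, and medians by over 1 SD between the replicate lists, and 54 did not. That SD came from the medians of the replicate lists, which were also among the values judged by it. A wide gap between replicates thus made a median less likely to be counted as different. No paired analysis was possible because the samples form 1 group.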

Other observations

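Entries of the optimal list beyond the promoter window also had a chaperone gene as the one with the nearest start. One inside hsp-12.3 (chrIV:9444648-9445067, rank 1210, signal 95.1) had its summit 649 bp downstream of the hsp-12.3 start, near the end of the gene and within 100 bp of the small nuclear RNA gene F38E11.11. One inside dnj-20 (chrII:9621913-9622332, rank 971) lay 2053 bp downstream of the nearest dnj-20 start. The entry assigned to dnj-19 (chrV:5502516-5502935, rank 803) lay 2131 bp downstream of its start, inside the neighbouring gene T05C3.2. The one assigned to hsp-25 (chrX:6042143-6042562, rank 1141) was intergenic, 2709 bp upstream. Another optimal entry near hsp-1, at rank 1487, lay 2469 bp downstream of its start, past the end of the gene.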
